A study of Mus musculus with 4 samples.

Results

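Inhibitory checkpoint receptors and their ligands restrain T cell responses, and their mRNA levels were read here in activated CD4+ T cells that carry a degradation-resistant form of the RNase Regnase-1. The 10 genes are Ctla4, Pdcd1, Lag3, Havcr2, Tigit, Btla, Cd160, Cd5, Cd200 and Cd274. They were chosen by name, as the genes of the deposited expression table whose symbol is one of these, and each of the 10 was found among its 16142 genes.

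The study asked how Regnase-1 acts in Foxp3+ regulatory T cells, and used a form that resists cleavage. It deposited 4 polyA RNA-seq libraries of splenic CD4+ T cells, 2 from wild-type (WT) mice and 2 from R111A mice. R111A mice were Cd4CreERT2 LSL-R111A fl/fl animals, in which tamoxifen-activated Cre removes a loxP-STOP cassette in front of an EGFP-marked transgene that encodes Regnase-1 with its MALT1 cleavage site changed. WT mice were on the B6 background. Cells of both groups were purified with magnetic beads, sorted and stimulated for 12 h with 5 µg/mL anti-CD3 plus 1 µg/mL anti-CD28. The tamoxifen course was 75 mg/kg by intraperitoneal injection on 5 days, which the labels give in the same words for all 4 libraries. WT mice of other assays in the study also received tamoxifen. The study's general sorting method gates EGFP+ cells of reporter mice and then separates CD25+ regulatory from CD25- conventional T cells. The labels of these libraries say only that CD4+ T cells were sorted, so whether these gates were used for them is not stated. For the study's mice in general, both sexes were used at an age of 6 to 12 weeks. The transgene adds to the endogenous gene and is limited to cells in which Cd4-driven Cre was active, and the values do not separate the transcripts of the transgene from those of endogenous Zc3h12a. The labels do not say that replicates came from separate animals, so p-values measure the spread between these libraries. Only stimulated cells were analysed, so nothing here shows what activation did to a gene.

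As background, activated T cells switch on surface receptors that bind ligands on neighbouring cells and recruit phosphatases to the antigen receptor or to its CD28 co-signal. Ctla4 competes with Cd28 for the same ligands, Pdcd1 and Btla signal through tyrosine motifs in their tails, and Lag3, Tigit, Havcr2 and Cd160 use other ligands. Regnase-1, encoded by Zc3h12a, degrades mRNAs that carry certain stem-loops in the 3′ untranslated region (UTR), and in T cells it is cleaved by MALT1 after antigen receptor stimulation.

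Levels are in FPKM (fragments scaled by transcript length and by the number of mapped fragments), a scale per length on which genes can be set side by side. The files hold no counts, so depth is unknown. A rough estimate was the most common ratio of values between libraries among genes very low in both. It is a depth ratio only if such genes had equal numbers of fragments in both. By it, the depth of WT replicate 1 was estimated at 1 times that of WT replicate 2. The corresponding ratios were 1.05 over R111A replicate 1 and 1.18 over R111A replicate 2. The deposited values summed to 801475 and 836143 FPKM in the WT libraries and to 1053551 and 1012215 FPKM in the R111A libraries. Replicates were closer in WT than in R111A: over the 1938 genes with at least 50 FPKM, the robust SD of the log2 difference between replicates was 0.12 in WT and 0.32 in R111A.

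Zc3h12a itself marked the groups. Its level was 17.0 and 15.7 FPKM in WT and 196 and 131 FPKM in R111A. It rose by 3.22 ± 0.19 on the log2 scale (SE, n = 2 and 2, adjusted p = 9.2e-06 with limma). The libraries also carried the labelled cell type: 2 of 7 T cell markers were higher and 4 were lower in R111A with no overlap of the libraries. Over all genes tested, 78.3% were separated in this way, and marker counts here and below are to be read beside that share. The summed level of the 7 was 1823, 1846, 1625 and 1491 FPKM in WT replicates 1 and 2 and R111A replicates 1 and 2, with Cd3g the most abundant. Of the CD8 markers, Cd8a stood at 0.10, 0.20, 0.02 and 0.07 FPKM and Cd8b1 at 7.21, 6.56, 3.86 and 4.39 FPKM in the same order.

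In WT cells the checkpoint genes spanned a wide range of levels. Cd5 was the most abundant with a mean of 346 FPKM, followed by Pdcd1 at 119, Cd200 at 118 and Btla at 115 FPKM. The replicates of Cd200 overlapped those of Pdcd1 and of Btla, while both Btla values lay under both Pdcd1 values. Lag3 with 68.6 and Cd274 with 64.8 FPKM came next, also with overlapping replicates, then Ctla4 at 41.6, Tigit at 25.0 and Cd160 at 11.0 FPKM. Havcr2 was the lowest of the 10 at 0.615 FPKM. In R111A cells the order was different. Cd5 at 264 and Pdcd1 at 164 FPKM still led, Cd274 at 83.7 FPKM moved from the sixth to the third place, and Btla at 54.5, Cd200 at 37.0 and Tigit at 14.2 FPKM followed. Cd160 at 10.8 and Ctla4 at 10.5 FPKM had overlapping replicates, and Lag3 dropped from the fifth to the ninth place, above Havcr2 at 0.300 FPKM.

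**Figure D1:**
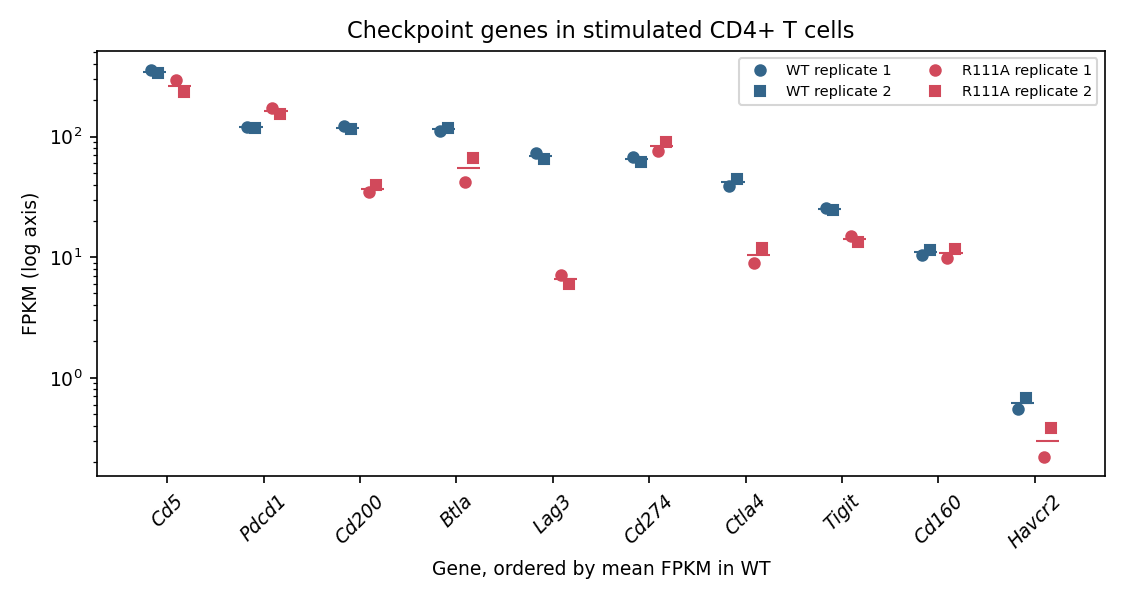
Level of each checkpoint gene in FPKM on a log axis, with 1 point per library, WT and R111A side by side and a bar at the mean of each group. The WT points of Lag3 lie at 72.7 and 64.6 FPKM and its R111A points at 7.12 and 5.97 FPKM, while the groups overlap for Cd160.

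Added together, the 10 checkpoint genes reached 926 and 896 FPKM in WT and 665 and 626 FPKM in R111A. Without Cd5 the sums were 570 and 560 FPKM against 368 and 394 FPKM. The make-up of the sum shifted too: Pdcd1, Cd274 and Cd5 together held 58.7% and 57.7% of it in WT and 82.3% and 76.0% in R111A.

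Of the 10 genes, 9 passed the filter of a mean of at least 1 FPKM, each with at least 5.97 FPKM in every library, and Havcr2 did not. By adjusted p under 0.05, 6 of the 9 were lower in R111A, against 32.1% of all 9831 genes tested, and 1 of 9 was higher, against 21.2%. With a 2-fold change as well, 4 of 9 were lower (Lag3, Ctla4, Cd200 and Btla), against 8.34% of all genes. None, 0 of 9, was higher past 2-fold in the limma fit, against 8.52%, and 2 were higher at an unadjusted p under 0.05, Pdcd1 and Cd274. The median log2 fold change was -0.78 over the 9 and -0.59 with Havcr2, beside -0.12 for all genes tested. Groups did not overlap for 9 of the 10 genes, Cd160 being the exception, and 78.3% of all genes tested were separated in the same way. In these bulk samples, fewer cells of a type and less RNA per cell cannot be told apart.

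Across all genes tested, 838 were higher and 820 were lower past both thresholds. Rescaling each library to TPM, a scale per length on which every library has the same sum, gave 583 higher and 1749 lower and moved the median of all genes from -0.12 to -0.42. Measured from that median, the checkpoint genes stood in the same order on both scales. Lag3 stood at -3.09 on the deposited scale and -3.11 on TPM, Ctla4 at -1.79 and -1.81, Cd200 at -1.53 and -1.56, Btla at -0.99 and -1.02, and Tigit at -0.66 and -0.68. Cd5 stood at -0.28 and -0.31, Cd160 at 0.09 and 0.08, Cd274 at 0.47 and 0.45, and Pdcd1 at 0.56 and 0.53. Cd160 is the gene whose sign turns when the median is taken off. Fold changes were taken on log2(FPKM + 1), which understates changes of genes near 1 FPKM.

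**Figure D2:**
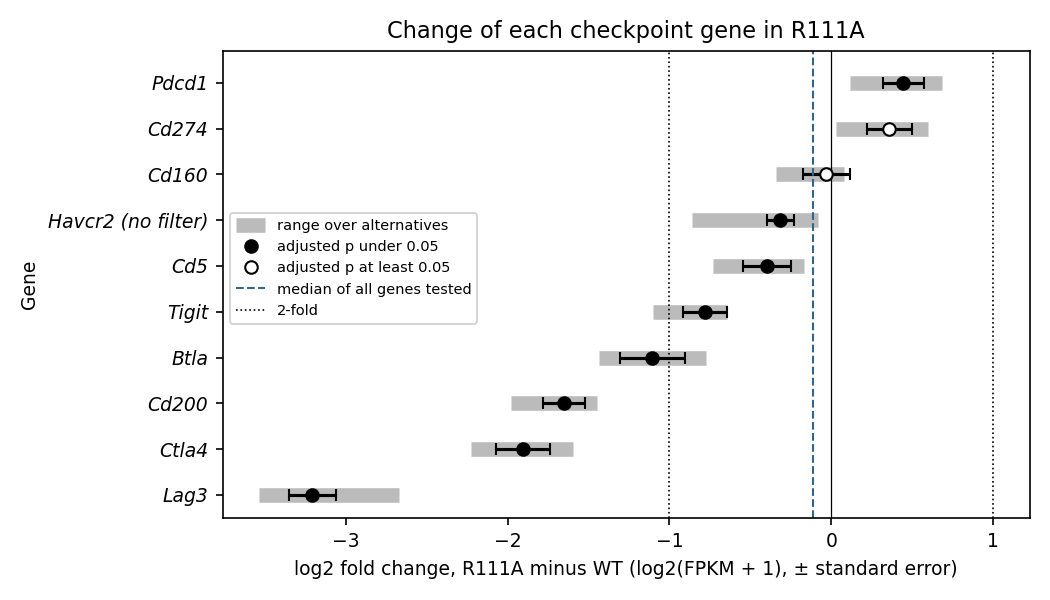
Log2 fold change of each checkpoint gene, R111A minus WT on log2(FPKM + 1), as points with standard errors (n = 2 and 2), filled where adjusted p was under 0.05, over grey bars for the range across alternative settings; dotted lines mark 2-fold and the dashed line the median of all genes at -0.12. Lag3 lies lowest at -3.21 and Pdcd1 highest at 0.45, and the value of Havcr2 comes from the fit with no filter on low levels.

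Lag3, a Cd4-related receptor that binds MHC class II, had the largest fold difference between the groups among the 10. Its level (gene ID 16768, chr6:124904359-124912434, GRCm38) was 72.7 and 64.6 FPKM in WT and 7.12 and 5.97 FPKM in R111A. Both R111A libraries lay far under both WT libraries, and 9.54% of the WT mean was left. The log2 fold change was -3.21 ± 0.15 (SE, n = 2 and 2, 95% interval -3.54 to -2.87, adjusted p = 3.4e-06). Among all genes tested, Lag3 moved from percentile 84.4 to percentile 29.1 of level. It stayed past both thresholds in all 14 alternative settings, with log2 fold changes from -3.53 to -2.67.

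Lag3 lies beside Cd4, with 16.1 kb between the genes, and 1.24 kb from Ptms on its other side. Cd4, the co-receptor that shares the MHC class II ligand, was at 158 and 131 FPKM in WT and 70.7 and 51.4 FPKM in R111A. It fell by 1.24 on the log2 scale (SE 0.18, adjusted p = 0.00057), less than Lag3. The level of Lag3 per Cd4 was therefore 0.461 and 0.492 in WT and 0.101 and 0.116 in R111A, with no overlap between the groups. Ptms, which encodes the small acidic protein parathymosin, read 87.7 and 81.0 FPKM in WT and 58.2 and 37.2 FPKM in R111A, and it fell by 0.84 on the log2 scale (adjusted p = 0.0074). The 3 neighbours were thus lower together, by unequal amounts.

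Ctla4 encodes the receptor that takes Cd80 and Cd86 away from Cd28. Its level (gene ID 12477, chr1:60909025-60915832) was 38.9 and 44.3 FPKM in WT and 8.94 and 12.0 FPKM in R111A. The R111A libraries were both low and did not overlap WT, and the WT mean was 3.97 times the R111A mean. Ctla4 fell by 1.90 on the log2 scale (SE 0.17, adjusted p = 4.6e-05), and it remained past both thresholds in all 14 alternatives, between -2.23 and -1.60.

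Ctla4 shares its stretch of chromosome 1 with its relatives Icos, 44.9 kb away, and Cd28, 136 kb away. Cd28, the activating receptor for the same ligands, had 115 and 107 FPKM in WT and 70.1 and 101 FPKM in R111A. Its R111A replicates were spread wide and the test was not passed (log2 fold change -0.39, adjusted p = 0.092). It was passed on TPM (-0.73, adjusted p = 0.0034), with the replicate block and without R111A replicate 2, and the adjusted p ran from 0.0032 to 0.50 over the alternatives. Icos, an activating relative, was at 49.5 and 46.5 FPKM against 29.8 and 39.2 FPKM and fell by 0.48 (adjusted p = 0.032), a call lost in 5 alternatives, those without WT replicate 1 or WT replicate 2 among them (adjusted p 0.0011 to 0.23). Ctla4 per Cd28 was 0.338 and 0.416 in WT and 0.128 and 0.119 in R111A, 3.05-fold lower. Of their shared ligands, Cd80 was at 0.65 and 0.68 FPKM in WT and 1.99 and 2.52 FPKM in R111A and rose by 0.96 (adjusted p = 0.00079). Cd86 was at 1.30 and 1.55 FPKM in WT and 1.44 and 1.72 FPKM in R111A, where the groups overlapped (log2 fold change 0.09, adjusted p = 0.62).

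Regulatory T cells carry much Ctla4, so the markers of these cells were read beside it. Foxp3, their lineage factor, was at 11.3 and 8.78 FPKM in WT and 2.86 and 1.86 FPKM in R111A, and it fell by 1.72 on the log2 scale (adjusted p = 0.00015). Of 6 markers of regulatory T cells, 4 were lower and 1 was higher in both R111A libraries, none was at 0 in all 4 libraries, and Il2ra was the most abundant. Their summed level was 162 and 157 FPKM in WT and 135 and 138 FPKM in R111A. Ctla4 per Foxp3 was 3.44 and 5.05 in WT and 3.13 and 6.47 in R111A, where the groups overlapped. The part of these cells in the fall of Ctla4 was not tested, and whether the CD25 gate of the general sorting method, which would take most of them out, was used for these libraries is not stated.

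Ctla4 has a mapped promoter and 4 predicted stem-loops in its 3′ UTR. The promoter and the stem-loop with the longest stem are printed here. Such stem-loops were found in 84.8% of genes with a 3′ UTR, and their part in the fall of Ctla4 was not tested. The promoter (RefSeq, GRCm38.p6, chr1:60908775-60909074, plus strand, 250 bases before to 50 after the start) carries 1 match to the NFAT core GGAAA, 144 bases before the start, in capitals. The UTR site (GENCODE vM21 transcript, GRCm38, chr1:60914819-60914843, plus strand) begins 102 bases after the stop codon and folds into a stem of 10 base pairs, with its loop in capitals.
Ctla4 promoter: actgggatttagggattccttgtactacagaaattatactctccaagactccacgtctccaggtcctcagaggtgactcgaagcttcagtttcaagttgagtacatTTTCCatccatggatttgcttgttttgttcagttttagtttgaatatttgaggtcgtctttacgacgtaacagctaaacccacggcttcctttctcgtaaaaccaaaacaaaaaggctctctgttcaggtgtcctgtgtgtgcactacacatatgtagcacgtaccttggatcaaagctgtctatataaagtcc
Ctla4 stem-loop: ttaaggagagTATGCctctctttaa

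Pdcd1, the receptor that recruits the phosphatase Ptpn11 to the antigen receptor and Cd28, went the other way. Its level (gene ID 18566, chr1:94038305-94052553) was 120.2 and 119 FPKM in WT and 174 and 153 FPKM in R111A. Both R111A libraries lay above both WT libraries, 1.37-fold higher in the mean. Pdcd1 rose by 0.45 on the log2 scale (SE 0.13, adjusted p = 0.018), and no setting took it past 2-fold. The call was lost on TPM, where the log2 fold change was 0.11 (adjusted p = 0.47), and without WT replicate 1 (0.45, adjusted p = 0.16) or WT replicate 2 (0.44, adjusted p = 0.18). Over all 14 alternatives the adjusted p ran from 0.0029 to 0.47 and the log2 fold change from 0.11 to 0.69.

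With Lag3 and Ctla4 lower and Pdcd1 at or above its WT level, their balance changed by far more than Pdcd1 itself. Pdcd1 per Lag3 was 1.65 and 1.84 in WT and 24.5 and 25.6 in R111A, 14.3-fold higher. Pdcd1 per Ctla4 went from 3.09 and 2.68 to 19.5 and 12.7, and Pdcd1 per Cd200 from 0.990 and 1.03 to 5.02 and 3.88. None of these ratios overlapped between groups, and a ratio within a library does not depend on how the library was scaled. With 2 against 2 libraries an exact permutation test cannot go below p = 0.333 (two-sided), and no test was run on the ratios. The nearest genes tested on either side of Pdcd1, D2hgdh (log2 fold change 0.12, adjusted p = 0.52) and Fam174a (-0.06, adjusted p = 0.79), did not pass the test.

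The promoter of Pdcd1 is printed beside those of the genes that fell, as the gene that rose. It lies at chr1:94052504-94052803 on the minus strand (RefSeq, GRCm38.p6) and holds 2 matches to GGAAA, 28 and 23 bases before the start, in capitals. The printed 3′ UTR site is 1 of 2 that share its longest stem and the nearer to the stop codon. It lies at chr1:94039022-94039033, minus strand (GENCODE vM21 transcript, GRCm38), 272 bases after the stop codon, with a stem of 4 base pairs and the loop in capitals.
Pdcd1 promoter: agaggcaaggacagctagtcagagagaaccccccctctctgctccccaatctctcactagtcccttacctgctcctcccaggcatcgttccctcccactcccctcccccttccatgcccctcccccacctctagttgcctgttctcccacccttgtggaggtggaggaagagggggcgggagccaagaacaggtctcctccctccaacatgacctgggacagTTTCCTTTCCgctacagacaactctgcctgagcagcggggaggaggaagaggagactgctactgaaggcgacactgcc
Pdcd1 stem-loop: cctaCTGTtggg

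Cd274, the ligand of Pdcd1 also known as PD-L1, was at 67.8 and 61.9 FPKM in WT and 76.5 and 90.9 FPKM in R111A (gene ID 60533, chr19:29362107-29388095). The R111A libraries were the higher ones without overlap, by less than Pdcd1 on the log2 scale. Its log2 fold change of 0.36 ± 0.14 missed the test (95% interval 0.04 to 0.68, adjusted p = 0.057). The adjusted p was under 0.05 with quantile normalization (0.0092), the replicate block (0.043) and median-of-ratios factors (0.024), and without R111A replicate 1 (0.0095). On TPM the log2 fold change was 0.03 (adjusted p = 0.88), and over all alternatives the adjusted p ran from 0.0092 to 0.88. The annotated span of Cd274 overlaps that of Plgrkt, which had 42.7 and 43.0 FPKM in WT and 55.1 and 55.9 FPKM in R111A, and how fragments in the shared stretch were assigned was not tested.

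Pdcd1lg2, the second ligand of Pdcd1, begins 22.8 kb beyond Cd274 and moved by more. It was at 16.0 and 16.7 FPKM in WT and 43.4 and 52.1 FPKM in R111A, and it rose by 1.48 on the log2 scale (SE 0.14, adjusted p = 7.4e-05). Pdcd1lg2 per Cd274 was 0.236 and 0.270 in WT and 0.567 and 0.573 in R111A, 2.25-fold higher, with no overlap. Cd274 per Pdcd1, the ligand over its receptor, overlapped between groups, at 0.564 and 0.521 against 0.439 and 0.594. Antigen-presenting cells also make these ligands and Cd80. Of 8 myeloid markers, 7 were higher in both R111A libraries (not Tyrobp), and their summed level was 5.80 and 2.33 FPKM in WT and 17.4 and 14.8 FPKM in R111A, with Tyrobp the most abundant by mean in WT and Cd68 in R111A. For 6 dendritic cell markers, 2 were higher and 1 was lower, with sums of 1.76, 1.53, 2.33 and 2.47 FPKM and Zbtb46 the most abundant. Their part in the levels of Cd274 and Pdcd1lg2 was not tested.

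Cd200, a surface ligand that restrains myeloid cells through Cd200r1, was among the most abundant of the 10 in WT. Its level (gene ID 17470, chr16:45382111-45409060) was 121 and 115 FPKM in WT and 34.7 and 39.4 FPKM in R111A. Both R111A libraries were low, and 31.3% of the WT mean was left. Cd200 fell by 1.65 on the log2 scale (SE 0.13, adjusted p = 3.0e-05) and stayed past both thresholds in all 14 alternatives, between -1.98 and -1.45. Its receptor Cd200r1 was scarce, at 1.34 and 1.43 FPKM in WT and 4.27 and 4.97 FPKM in R111A, and it rose by 1.23 (adjusted p = 0.00019), under 2-fold with a pseudocount of 5 FPKM (0.59). Cd200 per Cd200r1 went from 90.6 and 80.4 to 8.12 and 7.93. Of 8 myeloid markers, 7 were also higher in both R111A libraries, with sums of 5.80 and 2.33 FPKM in WT and 17.4 and 14.8 FPKM in R111A. Their part in the rise of Cd200r1 and in this ratio was not tested.

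The Cd200 sequences are shown as those of the gene that fell with a small spread between replicates. Its promoter lies at chr16:45409004-45409303 on the minus strand (RefSeq, GRCm38.p6) and has none of the motifs searched, so it has no capitals. The UTR site at chr16:45383234-45383255, minus strand (GENCODE vM21 transcript, GRCm38), begins 204 bases after the stop codon and has a stem of 8 base pairs, with the loop in capitals.
Cd200 promoter: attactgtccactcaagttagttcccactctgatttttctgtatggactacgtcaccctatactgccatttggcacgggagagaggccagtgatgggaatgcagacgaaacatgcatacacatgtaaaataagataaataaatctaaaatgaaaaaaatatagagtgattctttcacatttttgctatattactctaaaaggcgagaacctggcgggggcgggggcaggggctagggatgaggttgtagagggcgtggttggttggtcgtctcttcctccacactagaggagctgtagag
Cd200 stem-loop: tcgggtctGTTGTAggacttga

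Btla, the receptor for Tnfrsf14 (HVEM), was at 112 and 118 FPKM in WT and 42.0 and 67.0 FPKM in R111A (gene ID 208154, chr16:45223705-45252895). Both R111A libraries were lower than WT, and they differed from each other by 0.66 on the log2 scale. Btla fell by 1.11 (SE 0.20, adjusted p = 0.0021). It was under 2-fold with quantile normalization (-0.88) and without R111A replicate 1 (-0.77), and its adjusted p reached 0.028 at most over the 14 alternatives. Btla lies 129 kb from Cd200 on chromosome 16, where Tigit also lies, 1559 kb from Btla. Atg3, the nearest gene tested on the other side of Btla, did not pass the test (log2 fold change -0.17, adjusted p = 0.28). Both UTR sites of Btla have stems of 4 base pairs, and the one nearer the stop codon lies at chr16:45250623-45250635, plus strand (GENCODE vM21 transcript, GRCm38), 26 bases after the stop codon, with the loop in capitals.
Btla stem-loop: cactGCATGagtg

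Cd160 binds the same partner as Btla and was the steady one of the pair. Its level (gene ID 54215, chr3:96798763-96829351) was 10.5 and 11.5 FPKM in WT and 9.90 and 11.7 FPKM in R111A. The groups overlapped, and the log2 fold change was -0.03 (95% interval -0.37 to 0.31, adjusted p = 0.88), so changes within that interval were not detectable. Over the alternatives its log2 fold change ran from -0.34 on TPM to 0.08. Btla per Cd160 was 10.7 and 10.3 in WT and 4.24 and 5.72 in R111A. Tnfrsf14 itself was at 16.3 and 14.7 FPKM in WT and 19.9 and 22.4 FPKM in R111A and rose by 0.42 (adjusted p = 0.032), a call lost on TPM (0.11, adjusted p = 0.58), without WT replicate 1 or WT replicate 2 and with no filter (adjusted p 0.011 to 0.58). Btla per Tnfrsf14 was 6.90 and 8.04 against 2.11 and 2.99, 2.93-fold lower. Tnfsf14 (LIGHT), the activating ligand of Tnfrsf14, was at 21.9 and 21.6 FPKM in WT and 7.54 and 9.07 FPKM in R111A, and it fell by 1.30 (adjusted p = 0.00016).

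Tigit competes with the activating receptor Cd226 for Pvr, and Cd96 binds the same ligand. Tigit (gene ID 100043314, chr16:43626137-43665125) was at 25.5 and 24.5 FPKM in WT and 14.9 and 13.4 FPKM in R111A. Replicates were close and the R111A libraries were lower without overlap. Tigit fell by 0.78 (SE 0.14, adjusted p = 0.0016), under 2-fold on the deposited scale and past it on TPM (-1.10, adjusted p = 4.6e-05), with adjusted p from 1.7e-05 to 0.031 over the alternatives. Cd226 changed by much more. It was at 25.5 and 27.5 FPKM in WT and 1.97 and 3.41 FPKM in R111A, and it fell by 2.92 (SE 0.20, adjusted p = 1.4e-05). Cd96 was at 20.6 and 19.7 FPKM in WT and 30.7 and 37.4 FPKM in R111A, and it rose by 0.72 (adjusted p = 0.0034). Pvr, the ligand, was at 9.30 and 8.57 FPKM against 9.58 and 8.66 FPKM and did not pass the test (adjusted p = 0.89).

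In WT cells, Tigit, Cd226 and Cd96 stood at like levels, and in R111A cells they separated. Tigit per Cd226 was 1.00 and 0.888 in WT and 7.55 and 3.94 in R111A, 6.08-fold higher although Tigit fell. Tigit per Cd96 was 1.24 in both WT libraries and 0.485 and 0.359 in R111A, 2.94-fold lower. Cd226 per Cd96 was 1.24 and 1.40 in WT and 0.0642 and 0.0912 in R111A, 16.9-fold lower.

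**Figure D3:**
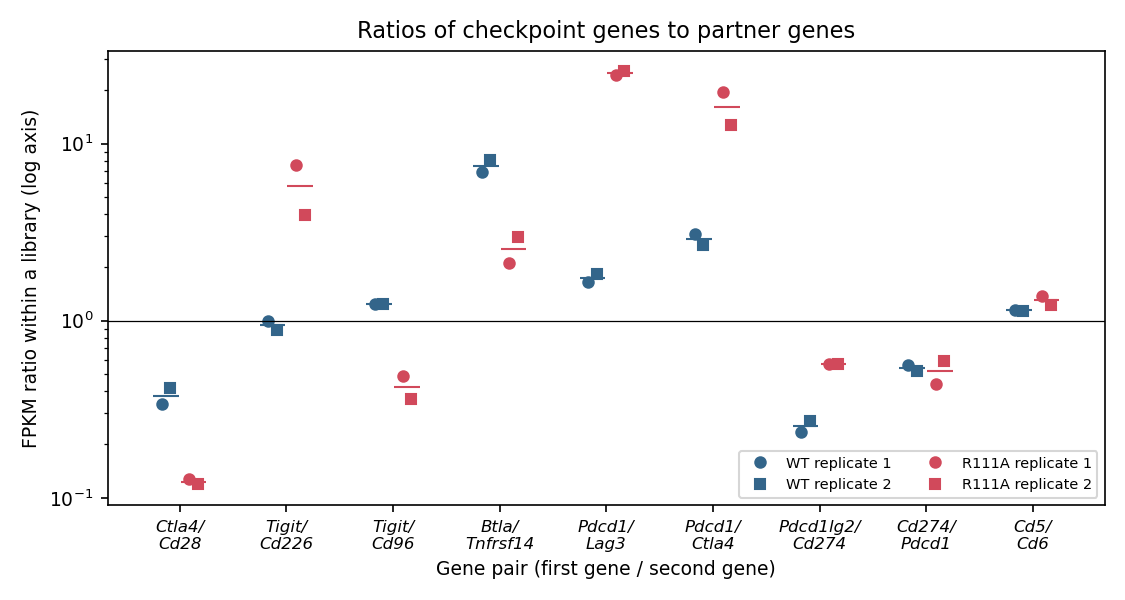
Ratios of FPKM between checkpoint genes and their counterparts on a log axis, 1 point per library, WT and R111A. Pdcd1 per Lag3 lies at 1.65 and 1.84 in WT and at 24.5 and 25.6 in R111A, and Ctla4 per Cd28 falls from 0.338 and 0.416 to 0.128 and 0.119.

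Havcr2 (TIM-3), a receptor of strongly activated and terminally differentiated T cells, was barely present. Its level (gene ID 171285, chr11:46454931-46481255) was 0.55 and 0.68 FPKM in WT and 0.22 and 0.38 FPKM in R111A. The R111A libraries were the lower ones, all under 1 FPKM, and Havcr2 was not tested with the other members. In a fit of 14448 genes with no filter, its log2 fold change was -0.31 (adjusted p = 0.049), and that call was lost in 7 of 12 alternatives, each fit with 1 library left out among them (adjusted p 0.011 to 0.28 over all 12). Lgals9, a ligand of Havcr2, was at 41.1 and 36.6 FPKM in WT and 20.2 and 18.2 FPKM in R111A and fell by 0.98 (adjusted p = 0.00055). Ceacam1, another reported partner, was at 0.05 and 0.08 FPKM in WT and 1.52 and 1.32 FPKM in R111A.

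Cd5, which lowers antigen receptor signalling and whose level follows its strength, was the most abundant of the 10 in both groups. It was at 356 and 336 FPKM in WT and 296 and 232 FPKM in R111A (gene ID 12507, chr19:10718107-10739026). Both R111A libraries were lower, with replicates farther apart than in WT, and the WT mean was 1.31 times the R111A mean. Cd5 fell by 0.40 (SE 0.15, adjusted p = 0.049), a call lost in 10 of 14 alternatives, with adjusted p from 0.00064 to 0.35 and log2 fold changes from -0.73 to -0.17. Among these were the fits without WT replicate 1 (adjusted p = 0.26), WT replicate 2 (0.15) or R111A replicate 2 (0.085). Its relative Cd6, 50.3 kb away, was at 308 and 295 FPKM in WT and 216 and 188 FPKM in R111A and fell by 0.58 (adjusted p = 0.0056), a call lost without WT replicate 1 (adjusted p = 0.070, from 7.2e-05 to 0.070 over the alternatives). Cd5 per Cd6 was 1.16 and 1.14 in WT and 1.37 and 1.23 in R111A.

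A pair of sites with long stems were found in the 3′ UTRs of genes whose tests were near the threshold, and they are shown for comparison with that of Ctla4. In Cd5 the site lies at chr19:10718572-10718591, minus strand, 8 bases after the stop codon, with a stem of 8 base pairs. In Cd274 it lies at chr19:29386921-29386944, plus strand, 1509 bases after the stop codon, with a stem of 9 base pairs. Both come from GENCODE vM21 transcripts (GRCm38), with the loop in capitals.
Cd5 stem-loop: agtgtctaCGCTtggacatt
Cd274 stem-loop: tagaagcaaCTACTAttgtttttg

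A stem-loop was counted where RNAfold paired at least 3 base pairs with a G-C pair around a loop of 3 to 6 bases that holds a pyrimidine, a purine and a pyrimidine in a row. Of the 10 genes, 8 had at least 1, and so did 84.8% of the 9741 genes with a 3′ UTR. Lag3 (81 bases) and Tigit (134 bases) had none, both with UTRs far shorter than the median of 986 bases. Ctla4 had 4 in 1115 bases, or 3.59 per kb, against a median of 3.91 per kb for all genes. Cd200 had 4 at 3.02 per kb and Btla had 2 at 3.03 per kb, both under that median. Pdcd1, which rose, had 5 at 5.00 per kb, and Cd5 had 3 at 6.61 per kb. Cd274 had 9 at 3.35 per kb, Cd160 had 6 at 3.26 per kb and Havcr2 had 4 at 2.21 per kb. In all, 8 of the 10 genes were under the median of all genes in sites per kb, with Pdcd1 and Cd5 the exceptions, and no test compared genes that fell with the others. A match is a description, not a site or a cause, and no binding was measured.

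Promoters were matched for 9 of the 10 genes, with 2 entries for Cd160 and none for Lag3. They were read on both strands for the letters TGANTCA (AP-1), AAAGGTCA (NR4A), AGGTGTGA (T-box), GCGTGGGCG (EGR) and GGAAA (NFAT), which are present in 7.81%, 1.51%, 1.28%, 0.612% and 61.3% of the 32851 RefSeq promoters of the same length. TGANTCA was found in Havcr2, at position -200 from the start. AAAGGTCA, AGGTGTGA and GCGTGGGCG were found in none of these windows. GGAAA was found in Ctla4, Pdcd1, Tigit, Cd5, Cd274 and 1 of the Cd160 entries. It was not found in Btla, Cd200 or Havcr2. In the printed promoters no match overlapped that of another motif. A match is again a description only, and absence says only that these letters are not in the window.

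The receptors' partners and signalling genes were read from 6 lists. Together they held 82 genes tested, of which 18 were higher and 15 lower past both thresholds. Over all genes tested these shares were 8.52% and 8.34%, and by adjusted p alone 21.2% and 32.1%, and each list's counts are to be read beside them. A gene could pass the filter through R111A alone, as Cd80, Klrd1, Klrc1, Cd101, Eomes and Tox2 did, with WT means under 1 FPKM. The counts of higher genes include such genes, and medians are therefore also given over all of a list's genes in the table. Among ligands and counter-receptors, 13 of the 19 in the table were tested (Fgl1 was not in the table) and 2 were higher and 2 lower past both thresholds. The list's median was 0.03 on the log2 scale, and 0 over all 19. Past both thresholds, Pdcd1lg2 and Cd200r1 rose, and Tnfsf14 and Cd72 fell. By adjusted p alone, 5 were higher and 5 lower, and Cd80 is among the higher ones. Cd72, a ligand of Cd5 on B cells, was at 4.01 and 4.99 FPKM in WT and 1.07 and 2.4 FPKM in R111A and fell by 1.05 (adjusted p = 0.0052). It was under 2-fold in 4 of 13 alternatives: with a pseudocount of 5 FPKM (-0.50), with median-of-ratios factors (-0.98), without WT replicate 2 (-0.92) and without R111A replicate 1 (-0.69). Of 6 B cell markers, 3 were higher and 1 lower in both R111A libraries, with sums of 2.21, 1.03, 5.33 and 4.71 FPKM with Cd79b the most abundant by mean in WT and Cd79a in R111A, and their part in Cd72 was not tested.

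**Figure D4:**
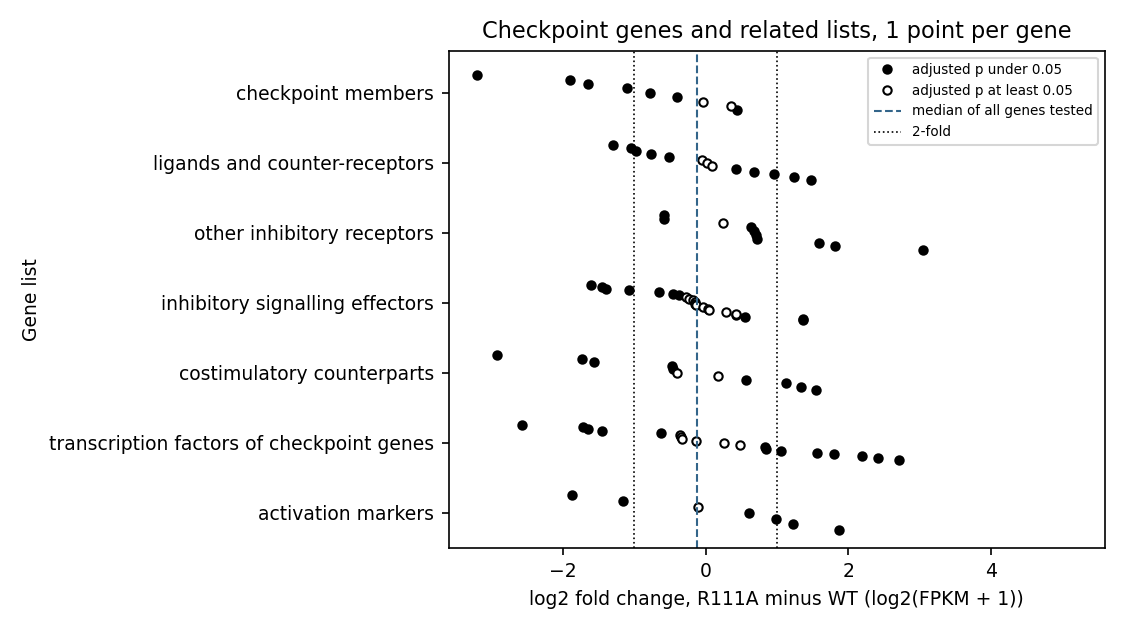
Log2 fold change (R111A minus WT) of the 9 checkpoint genes tested and of the genes in 6 related lists, 1 point per gene, filled where adjusted p was under 0.05, with the dashed line at the median of all genes and dotted lines at 2-fold. The checkpoint genes run from -3.21 (Lag3) to 0.45 (Pdcd1) and the other inhibitory receptors from -0.58 (Lair1 and Cd6) to 3.05 (Klrd1).

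Other inhibitory receptors moved in both directions. Of 15 in the table, 10 were tested, and 7 were higher and 2 lower by adjusted p. Past both thresholds in the limma fit, 3 were higher and 0 lower (2 were lower at an unadjusted p under 0.05). Klrd1 and Cd101 among the 3, and also Klrc1 among the 7, passed the filter through R111A alone, so these counts depend in part on the filter. Adora2a, the other of the 3, was at 10.3 and 10.5 FPKM in WT and 35.5 and 31.1 FPKM in R111A. It rose by 1.59 (adjusted p = 4.5e-05). The list's median log2 fold change was 0.70 over the 10 tested and 0.24 over all 15, and no test compared this list with the checkpoint genes. Klrd1, which pairs with NKG2 receptors, was at 1.00 and 0.40 FPKM in WT and 12.1 and 13.6 FPKM in R111A and rose by 3.05 (adjusted p = 1.1e-05). Cd101 was at 0.72 FPKM in both WT libraries and 4.87 and 5.22 FPKM in R111A and rose by 1.81 (adjusted p = 2.4e-05), under 2-fold with a pseudocount of 5 FPKM (0.81). Vsir (VISTA), an abundant one, was at 77.0 and 81.2 FPKM in WT and 139 and 121 FPKM in R111A and rose by 0.71 (adjusted p = 0.0024). Lair1, a collagen receptor, fell by 0.58 (adjusted p = 0.015), a call lost without WT replicate 2 (adjusted p = 0.075, from 0.0011 to 0.075 over the alternatives). Of 5 natural killer cell markers, 5 were higher in both R111A libraries, with sums of 0.87 and 1.08 FPKM in WT and 5.41 and 4.70 FPKM in R111A and Prf1 the most abundant. Their part in the rise of Klrd1 was not tested.

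Downstream of the receptors, the signalling list was split. Of 22 effectors tested, 2 were higher and 4 lower past both thresholds, with a median of -0.14, the same over all 23. Ptpn11 (SHP-2), the phosphatase recruited by Pdcd1, was at 44.0 FPKM in both WT libraries and 13.2 and 14.3 FPKM in R111A and fell by 1.61 (SE 0.13, adjusted p = 3.3e-05). Pdcd1 per Ptpn11 went from 2.73 and 2.70 to 13.2 and 10.7. Ptpn6 (SHP-1), which acts with Btla and Cd5 among others, was at 152 and 149 FPKM in WT and 58.4 and 55.2 FPKM in R111A and fell by 1.39 (adjusted p = 4.9e-05). Ubash3a, a suppressor of antigen receptor signalling, was at 45.3 and 43.9 FPKM against 17.5 and 14.2 FPKM and fell by 1.45 (adjusted p = 9.3e-05). In the other direction, Ptpn22, a phosphatase that acts on Lck, rose by 1.37 (adjusted p = 4.9e-05) from 73.9 and 70.6 FPKM to 190.4 and 187 FPKM. Rasa1, a Ras inhibitor, was at 18.2 and 20.5 FPKM in WT and 45.1 and 58.3 FPKM in R111A and also rose by 1.37 (adjusted p = 0.00020).

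Costimulatory counterparts, the activating receptors opposite the checkpoint genes, divided as well, with 3 of 11 higher and 3 lower past both thresholds and a median of -0.39. Cd226 and Tnfrsf18 (GITR) fell, the latter from 192 and 211 FPKM in WT to 57.4 and 62.4 FPKM in R111A (log2 fold change -1.73, adjusted p = 2.2e-05). Tnfrsf9 (4-1BB) was at 149 and 159 FPKM in WT and 375 and 409.8 FPKM in R111A and rose by 1.34 (adjusted p = 6.3e-05). Crtam rose from 29.0 and 31.7 FPKM to 82.4 and 99.6 FPKM (1.55, adjusted p = 6.2e-05).

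Of 19 transcription factors with reported links to checkpoint genes that were tested, 6 were higher and 4 lower past both thresholds, with a median of 0.26, or 0.20 over all 20. Eomes and Tox2, among the 6, passed the filter through R111A alone, with WT means of 0.84 and 0.57 FPKM. The count of higher factors therefore depends in part on the filter. Raising the cut-off to 5 FPKM left 16 factors, of which 4 were higher and 4 lower. Nr4a1, an immediate early factor of antigen receptor signalling, was at 146 and 144 FPKM in WT and 983 and 616 FPKM in R111A and rose by 2.42 (adjusted p = 3.8e-05). Nr4a2 rose by 2.71 (adjusted p = 5.5e-06), from 5.88 and 6.99 FPKM to 49.3 and 45.9 FPKM. Tbx21 (T-bet) was at 30.3 and 29.1 FPKM in WT and 5.44 and 3.16 FPKM in R111A and fell by 2.57 (adjusted p = 3.0e-05). Foxp3, given above beside Ctla4, was the other factor of the pair that fell furthest. The follicular helper list, in which Bcl6 is a member, had 4 of 5 markers higher and 1 lower in both R111A libraries, with sums of 25.7, 26.9, 77.9 and 68.1 FPKM. Sh2d1a was the most abundant by mean in WT, and in R111A Sh2d1a (34.3 and 33.3 FPKM) and Bcl6 (37.3 and 30.5 FPKM) overlapped. Follicular helper cells carry much Pdcd1, Btla and Cd200, and their part in those levels was not tested.

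Activation markers did not move as a block. Of 7 tested, 2 were higher and 2 lower past both thresholds, with a median of 0.61, or 0.25 over all 8. Cd69, an early activation antigen, rose by 1.23 (221 and 242 FPKM against 454 and 651 FPKM, adjusted p = 0.00060), and by less than 2-fold on TPM (0.89) and without R111A replicate 2 (0.97). Tfrc, the transferrin receptor of growing cells, fell by 1.87 (110.2 and 115 FPKM against 23.1 and 39.0 FPKM, adjusted p = 0.00020), and Cd44 fell by 1.16 (adjusted p = 0.00019), under 2-fold with a pseudocount of 5 FPKM (-0.97).

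The genes closest in pattern to each of the 4 that fell past both thresholds were found by the distance between their centred log2 levels over the 4 libraries. For Ctla4 these were the chemokine Ccl1 (distance 0.08) and the recombination gene Rad51ap1 (0.11). For Lag3 they were the kinase Pim2 (0.15) and Pros1 (0.20), which encodes protein S. For Btla they were Ccp110 (0.07) and Jaml (0.08), and for Cd200 the nuclease Fen1 (0.02) and Frmd6 (0.04). Distances over 4 libraries are descriptions and carry no test.

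The 2 CD8 markers were both lower in R111A, with sums of 7.31 and 6.76 FPKM in WT and 3.88 and 4.46 FPKM in R111A and Cd8b1 the most abundant. Of 4 erythroid markers, 3 were higher in both R111A libraries, with sums of 0.66 and 0.70 FPKM in WT and 12.9 and 13.0 FPKM in R111A, Hba-a1 the most abundant and Hbb-bs at 0 in every library. Xist, listed among the sex-linked genes, was not in the table. Of the 4 that were (Ddx3y, Kdm5d, Uty and Eif2s3y), 3 were higher in both R111A libraries, with Eif2s3y the exception. Their sums were 91.9, 97.9, 87.1 and 120.5 FPKM, with Eif2s3y the most abundant. What part any of these had in the checkpoint values was not tested.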

How the data were processed

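The authors aligned reads to mm10 with Bowtie2 2.4.4 and quantified genes with RSEM 1.2.28, and the deposited FPKM values of 2 WT and 2 R111A libraries were used as given. As the table holds no counts, limma 3.58.1 (R 4.3.3; lmFit, eBayes with trend) was fitted on log2(FPKM + 1). Genes averaging under 1 FPKM were left out, and p-values were adjusted over the other 9831 by Benjamini-Hochberg. The thresholds were an adjusted p under 0.05 and a 2-fold change. Alternatives were other pseudocounts, filters, scalings (TPM, median-of-ratios, quantile), eBayes settings, a replicate block and each library left out. UTRs were folded with RNAfold 2.7.2 in windows of 100 bases every 50 bases, and Python 3.11.15 was used for the rest. Members and lists were chosen with earlier results of these data known. Named genes are the 10 members, Zc3h12a, in each list genes among the 2 with the largest change in each direction (adjusted p under 0.05, no overlap), and the 2 genes closest in pattern to each member past both thresholds. Others, such as Cd28, Cd96, Icos, Cd4, Ptms, Vsir, Ptpn6, Pvr, Tnfrsf14, Lgals9, Ceacam1, Cd80, Cd86, Klrc1, Eomes, Tox2 and Plgrkt, were named after their values were seen.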

Additional observations from a re-analysis of the deposited data

How the results depend on the processing

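Counts of genes past both thresholds moved with the settings. The 838 higher genes became 386 with a pseudocount of 5 FPKM, 521 with a filter at 5 FPKM and 2088 with no fold threshold. The 820 lower genes became 402 with a pseudocount of 5 FPKM, 1749 on TPM and 3152 with no fold threshold. With no fold threshold, 1 checkpoint gene was higher (0 with it), and over the 6 lists 32 genes were higher and 26 lower (18 and 15 with it). The number of checkpoint genes lower past both thresholds was 4, and ran from 3 (quantile normalization, or without R111A replicate 1) to 5 (TPM). With a replicate block, 841 genes were higher and 821 lower, and 4 checkpoint genes were lower. The paired libraries share only a number, and the correlation of their deviations across 9831 genes, which are not independent, was 0.11. No gene of the members or lists that passed the test changed sign in an alternative. Among named genes that did not pass it, the sign changed for Cd160 (4 of 14 alternatives), Pvr (3 of 14), Cd86 (2 of 13), Il2ra (1 of 14) and Eif2s3y (1 of 14), among others. Neighbours named by position alone, such as Ptms and Plgrkt, were not run under the alternatives. With the block or 1 library left out, 1 residual degree of freedom remains, a lone library is assumed to vary like the other group, and small adjusted p-values there rest mostly on the pooled spread. Depth is unknown, so no counting error can be given for any value.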
